A study of Mus musculus with 9 samples.

Results

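Irf1, Irf2, Irf5, Irf7, Irf8, Irf9, Stat2 and Stat3 are the 8 interferon regulatory factor (IRF) and signal transducer and activator of transcription (STAT) genes described here, found by symbol among the 36410 genes listed in the count table. IRF proteins bind DNA through GAAA repeats, and STAT proteins are latent in the cytoplasm until a receptor-bound Janus kinase phosphorylates them. After type I interferon binds its receptor, STAT2 and IRF9 act in the complex ISGF3, which binds the interferon-stimulated response element (ISRE) of its target genes, and IRF7, one of those targets, drives further interferon production once it is phosphorylated. STAT3 acts mainly downstream of receptors that use gp130, such as those for interleukin 6 and leukemia inhibitory factor, and in the brain it is best known from reactive astrocytes, whereas IRF8 and IRF5 are best known from microglia and macrophages. The mRNA of 6 members was higher in HD-homo cells than in controls, from 1.35-fold for Irf1 to 124-fold for Irf7. That of Irf2 differed by no more than its error, and Irf8 was too sparse to pass the filter on low counts.

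The cells are immortalized striatal lines from mouse embryos with a knocked-in stretch of glutamine codons in exon 1 of huntingtin. ST Hdh Q7/Q7 cells (control) carry 7 glutamines on both alleles, ST Hdh Q7/Q111 cells (HD-het) carry 7 on 1 allele and 111 on the other, and ST Hdh Q111/Q111 cells (HD-homo) carry 111 on both, with no treatment named in the labels for any line. Each line gave 3 strand-specific libraries of poly(A) RNA, with between 29507665 and 41197931 reads on genes. Since 1 line stands for each genotype, line and genotype cannot be told apart, and because separate cultures are not stated, p values measure only the spread between these libraries.

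The lines differed widely, and the libraries of 1 line differed by more than counting error in every pair. Variance over that of counting ran from 2.23-fold between control libraries 1 and 2 to 40.3-fold between HD-homo libraries 2 and 3. Counts are given per megaread after TMM normalization (CPM). A count of 3, taken as the floor, was worth between 0.0710 and 0.101 CPM and covers counting error only. Of 10 neuron markers, 5 (Rbfox3, Syt1, Snap25, Nefl and Dcx) had at most 3 reads in every library, and Map2 and Tubb3 were present in all lines. Of the 5 that were tested, 0 were higher and 3 lower in HD-homo cells and 1 was higher and 2 lower in HD-het cells, each against controls. Nefm was lower in both lines. It had at most 1 read in HD-het and 11 in HD-homo libraries and passed the filter only with the control libraries, so its calls followed from the filter. Among all 13508 genes tested, 29.6% were higher and 28.9% lower in HD-homo cells and 33.8% and 31.4% in HD-het cells. The marker counts that follow are to be read against these shares. Stmn2, a growth cone gene named after its values were seen, had means of 53.7, 2.71 and 2.75 CPM from control to HD-het to HD-homo. Of the striatal projection neuron markers the dopamine receptor genes Drd1 and Drd2 had at most 1 read in any library. Foxp1, also named after its values were seen, had means of 93.8, 114 and 168 CPM, but it did not stand for this list. Against controls, the HD-homo line had 3 of the 7 tested markers raised and 0 reduced (median log2 fold change -0.05). Foxp2, 1 of these 3, had fewer than 10 reads in every control and HD-het library. For the HD-het line the calls were 3 up and 2 down (median 0.28). Bcl11b, 1 of those up and named after its values were seen, passed the filter only with the HD-het libraries. The sum of 10 fibroblast and mural cell markers was between 10300 and 11100 CPM in control, 17700 and 19200 CPM in HD-het and 10700 and 11700 CPM in HD-homo libraries, and of the 8 tested, 5 were higher and 2 lower in HD-homo cells than in controls. The part of these markers in the results was not tested. In such bulk RNA, fewer cells that express a gene and less of its RNA per cell cannot be told apart.

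Short stretches of the promoters are shown because these genes are themselves known targets of IRF and STAT proteins. All are from RefSeq on build GRCm38.p6, which had an entry for each of the 8 members, and positions count from the RefSeq start site. In the window from 250 bases before to 50 after each start, both strands were searched for TTCNNNGAA, the site of STAT dimers (GAS), and for GAAANNGAAA, a core of the ISRE. The first was present in 8.3% and the second in 3.44% of all 32851 such windows. Capitals mark the match, and no GAS match overlapped an ISRE match. The windows of Irf1, Irf2, Irf8 and Stat2 held a match:
Irf1, GAS at -90 to -82, chr11:53769914-53769942, plus strand: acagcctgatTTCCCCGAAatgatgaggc
Irf2, ISRE at -241 to -232, chr8:46739495-46739523, plus strand: tggggaagtGAAAATGAAAttgacttttc
Irf2, GAS at -224 to -216, chr8:46739511-46739539, plus strand: aaattgacttTTCCGAGAAatgatgaaag
Irf8, GAS at -171 to -163, chr8:120736177-120736205, plus strand: caaaagtgatTTCTCGGAAagagagcgct
Irf8, GAS at -153 to -145, chr8:120736195-120736223, plus strand: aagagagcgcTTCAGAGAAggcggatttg
Stat2, ISRE (read on the other strand) at -222 to -213, chr10:128270266-128270295, plus strand: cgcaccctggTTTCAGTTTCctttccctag

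No match to either motif lay in the windows of Irf5, Irf7, Irf9 and Stat3. Irf5 and Irf7 are shown beside them because they rose most in HD-homo cells. The 100 bases before their outermost annotated start hold no GAAA on either strand. Directly before a RefSeq start, 54.8% of stretches of that length hold this core. For Irf7 the outermost annotated start lies upstream of its RefSeq start, so the share is from an unlike stretch. The bases directly before the RefSeq start of Irf7 do hold TTTC, the core read on the other strand. The stretches before the outermost starts are:
Irf5, chr6:29526525-29526624, plus strand: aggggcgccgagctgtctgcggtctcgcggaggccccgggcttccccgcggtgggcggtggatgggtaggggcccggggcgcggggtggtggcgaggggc
Irf7, chr7:141266482-141266581, minus strand: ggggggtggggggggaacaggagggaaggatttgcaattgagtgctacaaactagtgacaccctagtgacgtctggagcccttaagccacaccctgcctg
A match or its lack describes these letters alone. Of the members with a match, Irf1 and Stat2 passed the test described below in every comparison, Irf2 in none, and Irf8 was too sparse. Irf5, Irf7, Irf9 and Stat3, without a match here, passed it in every comparison. Whether the matches bear on the mRNA was not tested.

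Of the 8 members, 7 passed the filter on low counts and were tested, among 13508 genes in all, by the quasi-likelihood test of edgeR with Benjamini-Hochberg (BH) adjustment. In HD-homo against control cells, 6 of the 7 were higher and 0 lower, where 29.6% of all genes tested were higher and 28.9% lower. In HD-het against control cells, 4 (Irf5, Irf7, Irf9 and Stat2) were higher and 2 (Irf1 and Stat3) lower, against 33.8% higher and 31.4% lower among all genes. In HD-homo against HD-het cells, 6 were higher and 0 lower, against 36.0% and 35.6%. The median log2 fold change of the 7 was 1.79, 0.29 and 1.48 in these comparisons, against 0.01, 0.03 and 0.00 for all genes tested. The comparisons share libraries, so their counts are not independent of each other.

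**Figure D1:**
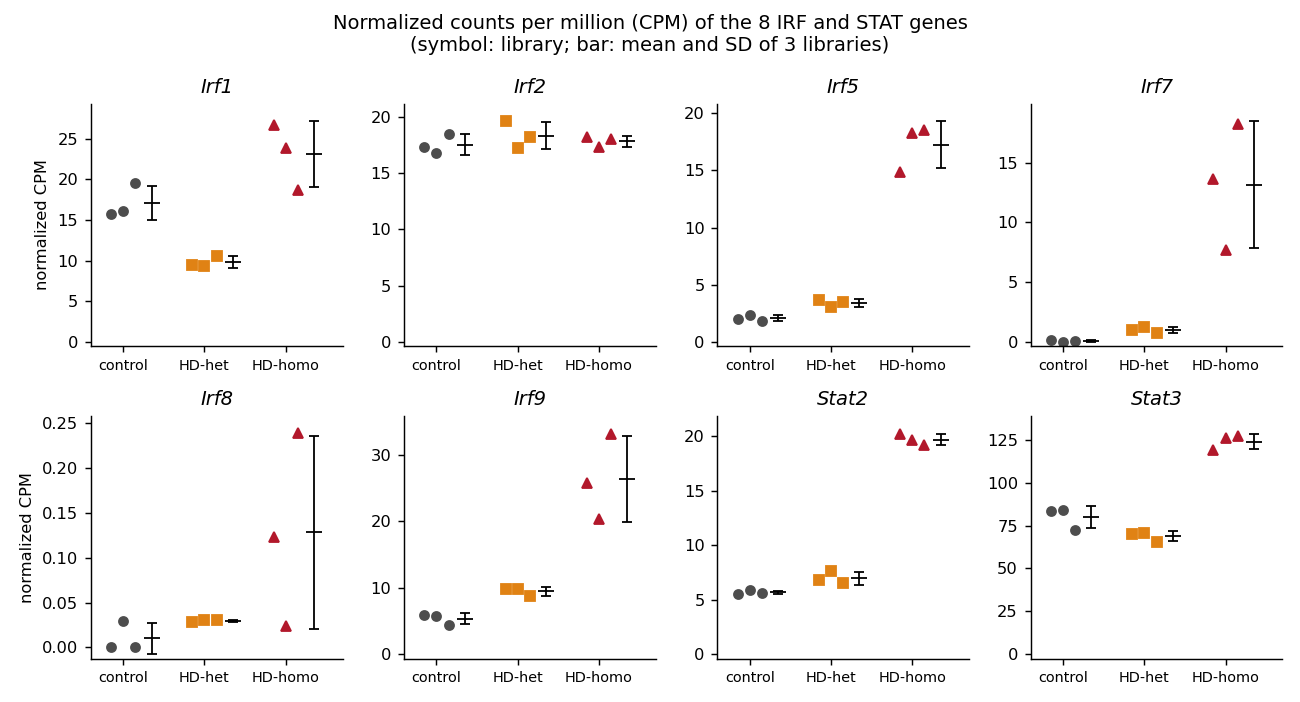
Normalized CPM (vertical axis, 1 scale per gene) of the 8 members in the 3 libraries each of control, HD-het and HD-homo cells, with the mean and SD of each line. Irf5, Irf7, Irf9 and Stat2 are ordered control, HD-het, HD-homo without overlap, Irf1 and Stat3 are lowest in HD-het cells, and Irf2 is level at 16.8 to 19.6 CPM.

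Irf7 encodes the factor that amplifies type I interferon production. It lies at 141262706 to 141266481 of chromosome 7 (minus strand, build GRCm38). Control libraries 1 to 3 held 6, 1 and 3 of its reads, HD-het libraries 35, 40 and 26, and HD-homo libraries 444, 324 and 611. Normalized, the control libraries were at 0.187, 0.0297 and 0.101 CPM, the HD-het libraries at 0.987, 1.22 and 0.779 CPM and the HD-homo libraries at 13.6, 7.67 and 18.2 CPM. Every HD-het library was above every control library and below every HD-homo library, and HD-homo library 3 was the highest. The mean of HD-homo cells was 124-fold that of control cells, a log2 fold change of 6.92 (95% interval 5.87 to 7.96, adjusted p = 2.9e-07 from edgeR with BH). Because the control level rests on so few reads, the size of this fold is uncertain, as the width of its interval shows. Without control library 1, which held most of the control reads, the log2 fold change was 7.61 in HD-homo and 3.89 in HD-het cells (adjusted p = 3.3e-06 and 0.00225). With all libraries, HD-het cells were 9.39-fold above control cells, a log2 fold change of 3.20 (1.77 to 4.63, adjusted p = 0.00115). Between the HD lines the log2 fold change was 3.72 (2.99 to 4.45, adjusted p = 1.6e-06). Of its merged exons, 45 bases lie opposite an exon of Phrf1.

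Irf9 encodes the DNA-binding subunit of ISGF3 and lies at 55603571 to 55610030 of chromosome 14 (plus strand). Its libraries held 191, 194 and 131 reads for the control line, 351, 322 and 291 for HD-het and 841, 858 and 1113 for HD-homo. The normalized values were 5.94, 5.77 and 4.43 CPM, then 9.90, 9.82 and 8.72 CPM, then 25.8, 20.3 and 33.2 CPM. As for Irf7, the 3 lines did not overlap, and within HD-homo cells library 3 was the highest and library 2 the lowest. The rise over control cells was 4.91-fold in HD-homo cells (log2 fold change 2.29, SE 0.176, adjusted p = 7.1e-07) and 1.76-fold in HD-het cells (log2 fold change 0.81, SE 0.180, adjusted p = 0.00209). HD-homo cells were 2.79-fold above HD-het cells (log2 fold change 1.48, SE 0.166, adjusted p = 1.0e-05). Its exons share 123 bases with those of Rnf31 on the same strand, 2.28% of its length, so some of its reads could be those of the neighbour.

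Stat2 encodes the STAT that holds IRF9 in ISGF3. It lies at 128270559 to 128292849 of chromosome 10 (plus strand), and the ISRE match shown above lies before it. Control libraries held 179, 197 and 167 reads, HD-het libraries 240, 251 and 217, and HD-homo libraries 658, 828 and 643. On the CPM scale the control libraries were at 5.57, 5.86 and 5.65, the HD-het libraries at 6.77, 7.65 and 6.50, and the HD-homo libraries at 20.2, 19.6 and 19.2. No line overlapped another, and the spread within HD-homo cells was narrow, with a coefficient of variation of 2.54% against 24.5% for Irf9 and 40.2% for Irf7. HD-homo cells had 3.45-fold the Stat2 mRNA of control cells (log2 fold change 1.79, SE 0.0893, adjusted p = 2.0e-08) and 2.82-fold that of HD-het cells (log2 fold change 1.49, SE 0.0872, adjusted p = 4.9e-08). The difference between HD-het and control cells was small, 1.23-fold (log2 fold change 0.29, SE 0.0928, adjusted p = 0.0164). It missed the threshold without control library 1 (log2 fold change 0.28, adjusted p = 0.0568) or without HD-het library 2 (0.22, adjusted p = 0.0686).

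The ratio of Stat2 to Irf9, an index chosen after the counts were seen and taken on CPM per kilobase of exon, was 0.978 ± 0.161 in control, 0.669 ± 0.0442 in HD-het and 0.704 ± 0.176 in HD-homo libraries (SD, n = 3).

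Irf5 encodes a factor that acts downstream of Toll-like receptors on inflammatory cytokine genes. It lies at 29526625 to 29541871 of chromosome 6 (plus strand). Reads numbered 66, 80 and 54 in control, 130, 99 and 118 in HD-het and 485, 774 and 621 in HD-homo libraries. That gave 2.05, 2.38 and 1.83 CPM for control, 3.67, 3.02 and 3.53 CPM for HD-het and 14.9, 18.3 and 18.5 CPM for HD-homo libraries. The lines again did not overlap, but here HD-homo library 1, not library 2, was the lowest of its line. Irf5 in HD-homo cells was 8.26-fold above control cells (log2 fold change 3.04, SE 0.141, adjusted p = 1.1e-08), the next largest difference after Irf7. In HD-het cells it was 1.63-fold above control cells (log2 fold change 0.70, SE 0.153, adjusted p = 0.00180), and HD-homo exceeded HD-het cells 5.06-fold (log2 fold change 2.34, SE 0.132, adjusted p = 3.8e-08). Exons of Tnpo3 lie opposite 411 bases of Irf5, 14.1% of its exon length. The libraries mark strand, but whether the counting used strand is not given in the sources used here, so reads from those bases could belong to either gene.

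Irf8 encodes a factor that microglia and other myeloid cells need, and it lies at 120736358 to 120756694 of chromosome 8 (plus strand). It had 0, 1 and 0 reads in control, 1, 1 and 1 in HD-het and 4, 1 and 8 in HD-homo libraries, which was too few to pass the filter. With no filter it was called in HD-homo against control cells (log2 fold change 3.14, adjusted p = 0.0358, edgeR with BH) but not in HD-het against control (1.22, adjusted p = 0.525) or between the HD lines (1.92, adjusted p = 0.0932). HD-homo libraries 1 and 3 were the only ones above the floor of 3 reads, and library 2 lay among the HD-het libraries. The summed reads, 13 against 1, gave a ratio of 11.4 for HD-homo over control cells with an exact 95% counting interval of 1.72 to 486, and 13 against 3 gave 4.06 over HD-het cells (1.12 to 22.2). These intervals cover counting error only and not the spread between libraries.

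Of 19 microglia and macrophage markers, 6 (Aif1, Adgre1, Tyrobp, C1qa, C1qb and C1qc) were at 0 in all 9 libraries, 10 with these included had at most 3 reads in every library, and Spi1, the partner of IRF8 on DNA, had at most 1 read. The 19 summed to 40.7 to 41.8 CPM in control, 100. to 110. CPM in HD-het and 55.0 to 63.4 CPM in HD-homo libraries. Of the 6 that were tested, 3 were higher and 1 lower in HD-homo cells and 3 higher and 2 lower in HD-het cells than in controls, and their part in the levels of Irf5, Irf7 and Irf8 was not tested. P2ry12, named after its values were seen, was lower in both HD lines, with at most 8 reads in HD-het and 4 in HD-homo libraries. It passed the filter only with the control libraries, so its calls followed from the filter. Among all genes tested, 29.6% were higher and 28.9% lower in HD-homo cells and 33.8% and 31.4% in HD-het cells. Of 10 lymphocyte markers 0 passed the filter, and they summed to at most 0.498 CPM in any library.

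Irf1 encodes an activator that interferon gamma induces through a GAS of the kind shown above, and Irf2 encodes a factor that binds the same DNA and opposes it at many genes. Irf1 lies at 53770014 to 53778374 of chromosome 11 (plus strand). It had 505, 542 and 576 reads in control, 335, 305 and 355 in HD-het and 870, 1009 and 626 in HD-homo libraries. Normalized, these were 15.7, 16.1 and 19.5 CPM, then 9.45, 9.30 and 10.6 CPM, then 26.7, 23.9 and 18.7 CPM. All HD-het libraries lay below all others, while control library 3 exceeded HD-homo library 3, so that these lines overlapped. Against control cells Irf1 fell in HD-het cells, by 0.80 on the log2 scale (SE 0.136, adjusted p = 3.2e-04), which is 0.573 of the control mean. In HD-homo cells it was 1.35-fold above control cells (log2 fold change 0.43, SE 0.130, adjusted p = 0.0142). That call was lost without control library 1 (0.38, adjusted p = 0.0606), control library 2 (0.39, adjusted p = 0.0551) or HD-homo library 1 (0.32, adjusted p = 0.0601). The difference between the HD lines, 2.36-fold (log2 fold change 1.24, SE 0.135, adjusted p = 8.0e-06), was the larger. In HD-homo cells Irf1 ran against Irf7 and Irf9, with library 3 the lowest.

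Irf2, at 46739732 to 46847458 of chromosome 8 (plus strand), had 556, 564 and 548 reads in control, 695, 563 and 609 in HD-het and 593, 730 and 604 in HD-homo libraries. Its CPM values were 17.3, 16.8 and 18.5 for control, 19.6, 17.2 and 18.2 for HD-het and 18.2, 17.3 and 18.0 for HD-homo libraries. All 3 lines overlapped. The log2 fold change was 0.02 in HD-homo against control cells (95% interval -0.14 to 0.19, adjusted p = 0.804, edgeR with BH), 0.07 in HD-het against control cells (-0.10 to 0.23, adjusted p = 0.472) and -0.04 between the HD lines (-0.21 to 0.13, adjusted p = 0.640). No difference was detected, and the intervals leave room for changes within those bounds. The ratio of Irf1 to Irf2 in CPM per kilobase, also chosen after the counts were seen, was 1.81 ± 0.137 in control, 0.996 ± 0.0923 in HD-het and 2.41 ± 0.423 in HD-homo cells (SD, n = 3), and it followed Irf1.

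Stat3 encodes the acute-phase STAT and was the most abundant member in every line. It lies at 100885098 to 100939540 of chromosome 11 (minus strand). Control libraries held 2677, 2829 and 2145 reads, HD-het libraries 2490, 2315 and 2195, and HD-homo libraries 3873, 5315 and 4264. The values were 83.3, 84.1 and 72.5 CPM for control, 70.2, 70.6 and 65.7 CPM for HD-het and 119, 126 and 127 CPM for HD-homo libraries. The HD-homo libraries were well above the rest, and the lowest control library was only just above the highest HD-het library. Stat3 in HD-homo cells was 1.55-fold above control cells (log2 fold change 0.63, SE 0.0674, adjusted p = 1.1e-05) and 1.80-fold above HD-het cells (log2 fold change 0.85, SE 0.0677, adjusted p = 6.3e-07). In HD-het cells it fell by 0.22 on the log2 scale against control cells (SE 0.0678, adjusted p = 0.0153). That call was lost without control library 1 (-0.19, adjusted p = 0.0656), control library 2 (-0.18, adjusted p = 0.0688) or HD-het library 3 (-0.18, adjusted p = 0.0515). The neighbour Stat5a lies opposite 72 bases of its exons. Of 8 astrocyte markers, 4 passed the filter. All 4 were higher in HD-homo cells than in controls, while in HD-het cells 1 (Fgfr3) was higher and 2 (Gja1 and Slc1a3) were lower. Among all genes tested, 29.6% were higher and 28.9% lower in HD-homo cells and 33.8% and 31.4% in HD-het cells. The 8 astrocyte markers summed to 330 to 380 CPM in control, 220. to 240. CPM in HD-het and 409 to 471 CPM in HD-homo libraries, mostly from Gja1. Of the defining astrocyte markers, Gfap had at most 6 reads and Aqp4 at most 1 in any library. The part of these genes in the result was not tested.

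**Figure D2:**
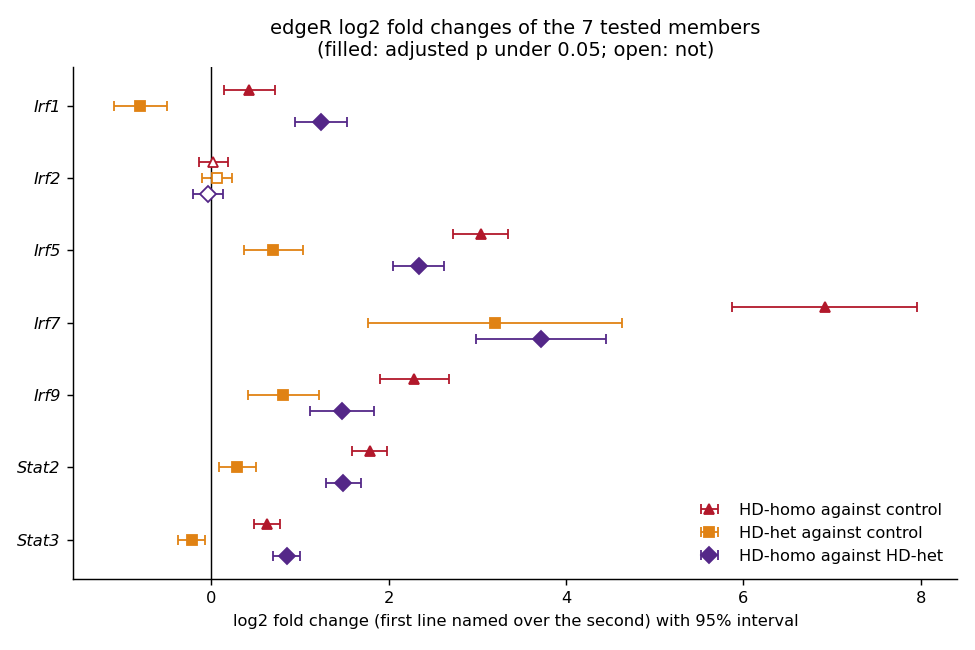
Log2 fold changes (horizontal axis) with 95% intervals of the 7 tested members in HD-homo against control, HD-het against control and HD-homo against HD-het cells. Filled symbols passed an adjusted p of 0.05. Irf7 has the largest values and the widest intervals, Irf1 and Stat3 are below 0 in HD-het and above 0 in HD-homo cells, and the 3 intervals of Irf2 include 0.

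To compare genes with each other, CPM was divided by the merged length of a gene's exons in GENCODE (CPM per kilobase). In control cells the order was Stat3 (8.39 ± 0.679), Irf1 (4.30 ± 0.520), Irf2 (2.37 ± 0.122), Irf9 (0.999 ± 0.154), Stat2 (0.960 ± 0.0253), Irf5 (0.718 ± 0.0957) and Irf7 (0.0281 ± 0.0208 CPM per kilobase, SD, n = 3), with Irf8 last. Irf9 and Stat2 overlapped there and the other neighbours did not. In HD-het cells Irf2 (2.48 ± 0.165) and Irf1 (2.46 ± 0.184) overlapped behind Stat3 (7.23 ± 0.282), then came Irf9 (1.76 ± 0.123), the overlapping Stat2 (1.18 ± 0.102) and Irf5 (1.17 ± 0.118), Irf7 (0.264 ± 0.0584) and Irf8. In HD-homo cells Stat3 (13.0 ± 0.476) led, and Irf5 (5.93 ± 0.707), Irf1 (5.80 ± 1.02), Irf9 (4.91 ± 1.20), Irf7 (3.49 ± 1.40) and Stat2 (3.32 ± 0.0842) each overlapped the next. Irf2 (2.41 ± 0.0643) was below them and above Irf8. The order in HD-homo cells depended on the length used. Per length of the longest transcript Irf1 was in place 2, Irf5 in place 3, Irf2 in place 5 and Irf7 in place 7, while the orders in control and HD-het cells were as above.

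**Figure D3:**
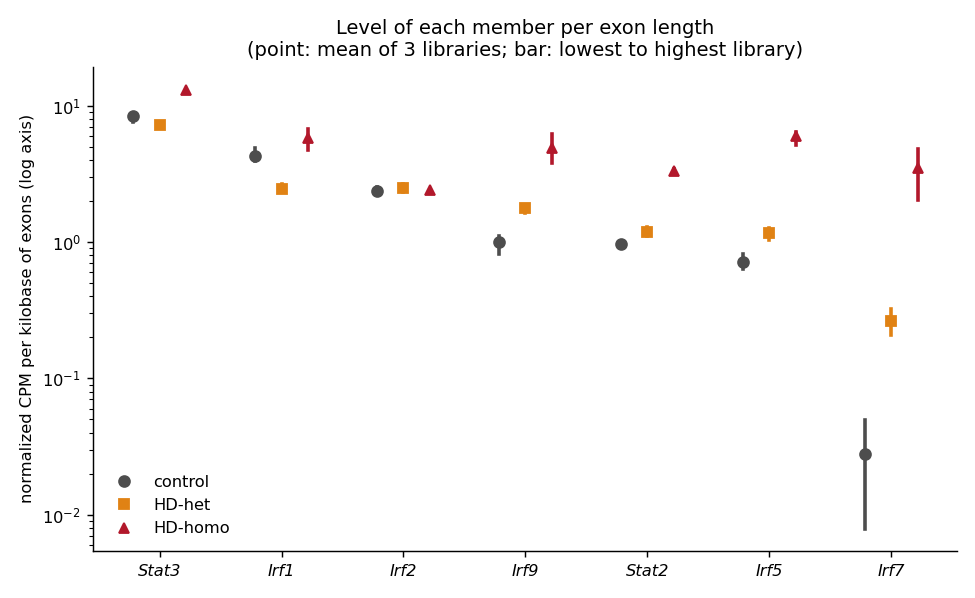
Normalized CPM per kilobase of merged exons (log axis) of 7 members in each line, as the mean of 3 libraries with a bar from the lowest to the highest library. Irf8 is left out because of its libraries at 0. Values lie between 0.0281 and 8.39 in control cells and between 2.41 and 13.0 in HD-homo cells.

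Other IRF and STAT genes of the table were compared in the same fit. Stat6, which signals for interleukins 4 and 13, stood out with 9, 16 and 11 reads in control, 18, 16 and 15 in HD-het and 3613, 4574 and 3147 in HD-homo libraries. Its HD-homo mean was 278-fold that of control cells (log2 fold change 8.10, SE 0.136, adjusted p = 6.1e-12, edgeR with BH), and in HD-het cells the difference missed the threshold (0.35, adjusted p = 0.319). Stat5a, which like STAT3 is activated by Janus kinases, had means of 11.27, 6.784 and 32.86 CPM from control to HD-het to HD-homo. Its log2 fold changes against control cells were -0.73 in HD-het (adjusted p = 5.0e-06) and 1.54 in HD-homo cells (adjusted p = 6.0e-09), the same signs as those of Irf1 and Stat3. Stat5b, its close paralog, was at 52.10, 43.81 and 55.55 CPM and differed from control cells by -0.25 in HD-het (adjusted p = 0.00993) and 0.09 in HD-homo cells (adjusted p = 0.289).

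Irf3, the IRF that is present before any interferon signal and starts its production, fell in HD-homo cells by 0.44 on the log2 scale (21.57 CPM in control and 15.86 CPM in HD-homo cells, adjusted p = 5.4e-04, edgeR with BH). In HD-het cells it was higher, at 25.28 CPM (log2 fold change 0.23, adjusted p = 0.0217). The ratio of Irf7 to Irf3 in CPM per kilobase, chosen after the counts were seen, went from 0.00431 ± 0.00298 in control to 0.0359 ± 0.00783 in HD-het and 0.763 ± 0.325 in HD-homo cells (SD, n = 3). Irf4 and Stat4, which are lymphoid genes, did not pass the filter. Stat4 had at most 2 reads and Irf4 at most 3 in any library.

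Genes known as targets of the members were taken as lists. Of the 29 tested ISGF3 targets, 27 rose and 1 fell in HD-homo cells relative to controls, with a median log2 fold change of 4.49 against 0.01 for all genes tested. Of the 29, 8 had fewer than 10 reads in every control and HD-het library, so they entered the test through HD-homo cells alone and had to differ. Of the 21 others, a count added after seeing the data as for the lists that follow, 19 rose and 1 fell, with a median of 3.41, where 29.6% of all genes were higher and 28.9% lower. Ifit1, Oas3 and Oasl2, named after their values were seen, are among these 21 and rose. They had at most 4, 8 and 4 reads in control and 13, 14 and 11 in HD-het libraries. They too passed the filter only with the HD-homo libraries, so the count of 21 still holds genes that had to differ. Oasl1, a member of the oligoadenylate synthetase family, had 0 reads in control and HD-het cells and exceeded this at least 82.3-fold in the HD-homo line, with the floor of 3 reads per library as the base. Oas1a had 3 reads over all control libraries against 1178 in HD-homo cells, a ratio of 346 (exact counting interval 118 to 1678). Both Oasl1 and Oas1a are among the 8 with fewer than 10 reads in every control and HD-het library, and so had to differ. At the other end, Ifit2 fell by 0.46 on the log2 scale (adjusted p = 0.0475), and Eif2ak2, which encodes the kinase PKR, rose by 0.79 (adjusted p = 8.8e-07, edgeR with BH). The list summed to 163, 164 and 172 CPM in control, 173, 183 and 180 CPM in HD-het and 531, 496 and 740 CPM in HD-homo libraries, so library 3 was the highest and library 2 the lowest in HD-homo cells, as for Irf7 and Irf9. Stat2 did not follow this order, with 20.2, 19.6 and 19.2 CPM in HD-homo libraries 1 to 3. For HD-het cells, 12 of the 29 rose and 3 fell against controls, with a median of 1.14 against 0.03 for all genes, of which 33.8% were higher and 31.4% lower. The 8 with so few reads in both lines could hardly be called here, and without them 12 of 21 rose and 3 fell (median 1.17).

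Among 16 tested IRF1 targets, most of them genes of antigen presentation and guanylate-binding proteins, 13 rose and 1 fell in HD-homo cells against controls (median log2 fold change 2.85 against 0.01). Without Psmb8 and Cxcl11, which had fewer than 10 reads in every control and HD-het library, 11 of 14 rose and 1 fell, with a median of 2.42 (29.6% and 28.9% of all genes). Gbp7, named after its values were seen, is among these 14 and rose. With at most 6 reads in control and 13 in HD-het libraries, it too passed the filter only with the HD-homo libraries and had to differ. The largest were Cxcl10, a chemokine, with a log2 difference of 7.95 (adjusted p = 5.7e-09), and Gbp2 with 5.45 (adjusted p = 5.7e-08, edgeR with BH), and the only one that fell was Casp8, by 0.18 (adjusted p = 0.0337). In HD-het cells, where Irf1 itself was lower than in control cells, 7 of the 16 rose and 1 fell (median 1.01 against 0.03), where 33.8% of all genes were higher and 31.4% lower. Without Psmb8 and Cxcl11, 7 of 14 rose and 1 fell in HD-het cells (median 1.02). The list sum was 289, 281 and 283 CPM in control, 432, 425 and 470 CPM in HD-het and 582, 612 and 838 CPM in HD-homo libraries, so no line overlapped another. Most of the rise of this sum in HD-het cells was that of B2m, named after its values were seen, with means of 136, 262 and 329 CPM from control to HD-het to HD-homo. Many of these genes also respond to ISGF3, and the lists do not separate the factors.

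STAT3 targets did not move one way. Of the 22 tested, 8 rose and 7 fell in HD-homo cells against controls (median log2 fold change 0.15 against 0.01), while 7 rose and 9 fell in HD-het cells (median -0.24 against 0.03). These shares lie near those of all genes tested, 29.6% higher and 28.9% lower in HD-homo and 33.8% and 31.4% in HD-het cells. Lcn2 and Serpina3n had fewer than 10 reads in every control and HD-het library and so entered through HD-homo cells alone, and without them 6 of 20 rose and 7 fell in HD-homo cells (median 0.07). In HD-het cells 7 of the same 20 rose and 9 fell (median -0.16). Serpina3g, which fell there and is named after its values were seen, passed the filter only with the control libraries. Serpina3n, an acute-phase protease inhibitor, rose by 3.81 on the log2 scale in HD-homo cells (adjusted p = 0.00325) and Bcl3, a regulator of NF-kappaB, by 2.95 (adjusted p = 5.1e-06). The apoptosis inhibitor Bcl2 fell by 2.38 (adjusted p = 6.7e-09) and the cell cycle gene Ccnd1 by 1.49 (adjusted p = 1.2e-06, edgeR with BH). Ccnd1 also has many other regulators.

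**Figure D4:**
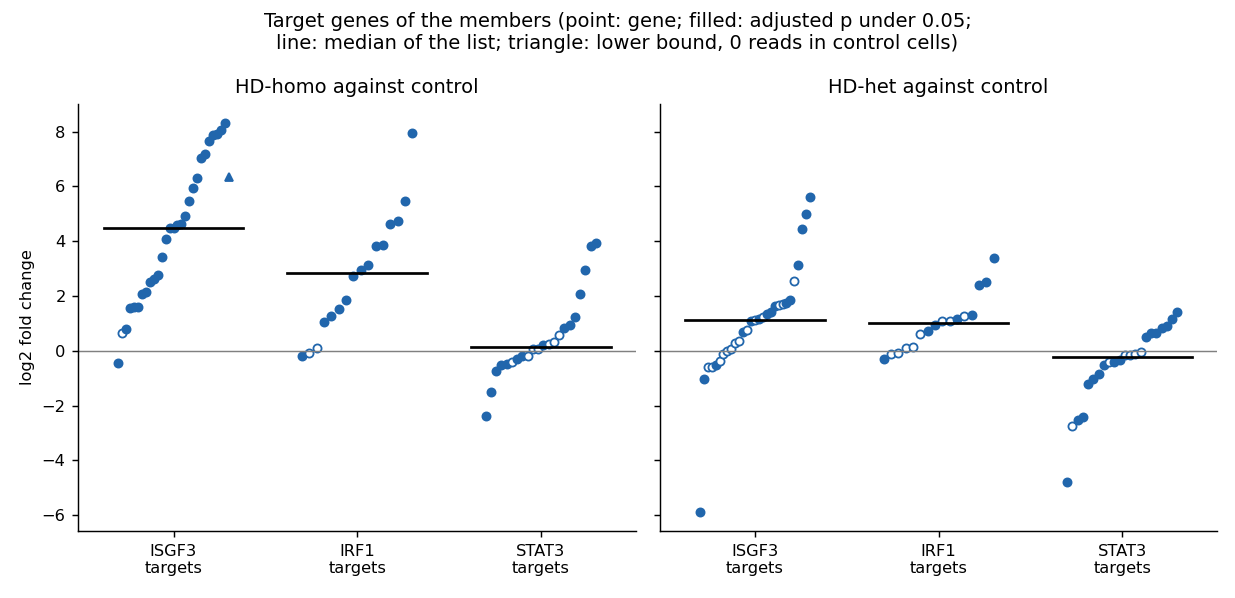
Log2 fold change (vertical axis) of each tested target gene of ISGF3, IRF1 and STAT3 in HD-homo (left) and HD-het cells (right) against control cells, ordered within each list, with the median of the list as a line. Filled symbols passed an adjusted p of 0.05, and the triangle is Oasl1 at its lower bound. The medians are 4.49, 2.85 and 0.15 on the left and 1.14, 1.01 and -0.24 on the right.

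Upstream of the members, the ligands that could be seen were those of gp130 receptors. Of 19 ligand genes, 10 had 0 reads in all 9 libraries, and these, named here after their values were seen, were Ifnb1, Ifna1, Ifna2, Ifna4, Ifna5, Ifng, Ifnl2, Ifnl3, Il10 and Osm. A count of 0 allows up to 3 reads, or up to 0.101 CPM in the smallest library. Of the 6 tested, 4 rose and 1 fell in HD-homo cells against controls, where 29.6% of all genes were higher and 28.9% lower. Lif, which encodes leukemia inhibitory factor, was at 18.4, 81.4 and 188 CPM from control to HD-het to HD-homo (log2 fold change 3.35 in HD-homo cells, adjusted p = 2.4e-06, and 2.14 in HD-het cells, adjusted p = 6.1e-05). Ctf1, which encodes cardiotrophin 1, fell by 2.18 in HD-homo cells (adjusted p = 1.7e-06, edgeR with BH).

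The counts of the next 3 lists are to be read against 29.6% of all genes higher and 28.9% lower in HD-homo cells (median 0.01), and 33.8% and 31.4% in HD-het cells (median 0.03). Receptors and Janus kinases upstream of STAT proteins numbered 16 tested, of which 9 rose and 3 fell in HD-homo cells against controls (median log2 fold change 0.46) and 5 higher and 7 lower in HD-het cells (median 0.01). The receptor genes Osmr and Lifr, whose products pair with gp130, rose by 2.09 (adjusted p = 2.1e-06) and 1.19 (adjusted p = 1.8e-05) in HD-homo cells, while Lepr fell by 1.19 (adjusted p = 6.8e-04) and Il6ra by 0.89 (adjusted p = 4.5e-05, edgeR with BH). In HD-het cells Osmr was below control cells by 1.21 and Lifr by 0.85 (log2 fold changes -1.21, adjusted p = 2.2e-04, and -0.85, adjusted p = 3.7e-04), the same sign as Stat3. Among 15 kinases and adaptors that activate IRF proteins, 7 were higher and 2 lower in HD-homo cells (median 0.24) and 5 higher and 6 lower in HD-het cells (median 0.10). Ikbke, a kinase of IRF3 and IRF7, rose by 2.09 (adjusted p = 1.7e-06) and its adaptor Tank by 1.36 (adjusted p = 3.4e-07), and the adaptor Tbkbp1 fell by 1.24 (adjusted p = 8.9e-04). Of 24 tested partners and inhibitors, 12 were higher and 5 lower in HD-homo cells (median 0.22) and 7 higher and 9 lower in HD-het cells (median -0.06). Usp18, which restrains the interferon receptor, had the largest of these differences in HD-homo cells (log2 fold change 7.89, adjusted p = 4.6e-06), but it had fewer than 10 reads in every control and HD-het library and entered through HD-homo cells alone. Without it 11 of 23 were higher and 5 lower in HD-homo cells (median 0.21), and 7 of 23 were higher and 9 lower in HD-het cells (median -0.07). Pdlim2, which promotes the degradation of STAT proteins, fell by 1.99 (adjusted p = 6.9e-07).

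Across the 9 libraries, Irf5, Irf7, Irf9 and Stat2 followed each other with Pearson's r between 0.95 and 0.99 on log2(CPM + 0.5), and Stat3 followed these 4 with 0.81 to 0.91 and Irf1 with 0.80. Irf1 gave 0.41 to 0.63 with those 4, and Irf2 gave -0.23 to 0.09 with the other members. These are descriptions over 9 points in 3 groups that share their line and library. The genes most like each member among 12009 compared were, with r, Ntrk3 for Irf7 (0.9951), Foxp1 for Irf9 (0.9944), Thsd7a for Stat2 (0.9969), P4ha2 for Irf5 (0.9967), Crcp for Irf1 (0.9941) and Enpp2 for Stat3 (0.9922). Irf2 had no such close match, with Gpx4 the nearest (0.8767).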

How the data were processed

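The authors deposited 1 table of raw counts per gene symbol for 9 mRNA libraries. The submitters' processing notes name cutadapt, Bowtie 1.1.2, RSEM 1.3.0 and DESeq2 with the builds GRCm38.p5 and mm10. Roles are not given, so whether the whole numbers are rounded RSEM estimates is unknown. Counts were fitted in R 4.3.3 with edgeR 4.0.16 (filterByExpr, minimum count 10, TMM, 1 mean per line over all 9 libraries, quasi-likelihood test, two-sided, prior count 0.125), and p values were adjusted by Benjamini-Hochberg over 13508 genes, with 0.05 as the threshold. The script was tested on simulated data. In 26 rows a date stands where the symbol should, and these stayed in the fit. Positions and exon lengths are from GENCODE on GRCm38. Members, lists and tests were chosen with earlier results of these data known. The text names the members, other IRF and STAT genes (some are not reported here) and, from each other list, at most the 2 highest and 2 lowest called genes (HD-homo against control cells, at least 1 CPM in the higher line), plus the genes most like each member. Alternatives are described under the dependence on processing.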

Additional observations from a re-analysis of the deposited data

Results flagged for a closer look

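Irf1 and Stat3 moved in opposite directions in the HD lines. Irf1 was lower than in control cells in HD-het cells (log2 fold change -0.80) and higher in HD-homo cells (0.43), and the difference between these effects was 1.24 (adjusted p = 8.0e-06, edgeR with Benjamini-Hochberg adjustment, every HD-homo library above every HD-het library). For Stat3 the effects were -0.22 and 0.63 and their difference 0.85 (adjusted p = 6.3e-07, again with no overlap between the HD lines). The effect of Irf1 in HD-homo cells and that of Stat3 in HD-het cells each lost the threshold without 1 of several libraries, so the opposite signs are less certain than the differences. Groups of 3 libraries are too small for a test of single outlying libraries.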

How the results depend on the processing

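The alternatives were DESeq2's size factors, library totals only, the Wald test of DESeq2 1.42.0, no filter, at least 10 reads in every library, only the lines compared, a replicate block, leaving out each library, an adjusted p under 0.01, a log2 size of 1 or more and a prior count of 2. Of the 375 log2 fold changes of members recomputed, 362 kept their sign and side of the threshold, 11 lost the threshold and 2 changed sign. Both sign changes were of Irf2, which passed no threshold, at -0.01 without control library 2 in HD-homo against control cells and 0.01 without HD-het library 1 between the HD lines (ranges without 1 library -0.01 to 0.06 and -0.09 to 0.01). The losses were of Irf1 in HD-homo and of Stat2 and Stat3 in HD-het against control cells. Where a log2 size of 1 was also required, 1 member (Irf7) was called in HD-het against control cells, not 6, and 4 in HD-homo against control cells. Of all genes, 18.4% and 19.1% were called in these comparisons, so the HD-het count was near that share. With no filter 7 of 8 members, Irf8 included, were called in HD-homo against control cells, as were 45.1% of all genes then tested. Leaving out 1 library gave 5 to 6 members called in HD-homo against control, 4 to 6 in HD-het against control and 6 in HD-homo against HD-het cells. The shares of all genes called were then 49.9% to 59.0%, 57.6% to 67.4% and 65.8% to 70.6%. Under the minimum of 10 reads in every library Irf7 could not be tested. With the replicate block 6 members were called in each comparison, as without it, and 8372, 9160 and 9938 of all genes against 7910, 8797 and 9666. In the labels the number is the only link between same-numbered libraries, and the main fit has no replicate term. Pearson's r between the deviations of same-numbered libraries was over 0.1 for some pairs only (0.023 to 0.245), but all 9 were above 0. As a hint from the data that they share more, 15 of 18 comparisons of a library with another line were closest to its own number. What they might share is not stated and was not tested. Taking the longest transcript or, chosen after seeing the data, the longest protein-coding transcript as the length changed the order of levels in 1 of 3 lines, HD-homo. Depth limits Irf8 and the control level of Irf7.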

Other observations

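Some genes of the lists were near 0 in HD-het cells alone, and they are named here after their values were seen. Trim25, an ubiquitin ligase of the RIG-I pathway and an ISGF3 target, was at 5.412 CPM in control, 0.09016 CPM in HD-het and 33.65 CPM in HD-homo cells (log2 fold change -5.88 in HD-het against control cells, adjusted p = 7.4e-09, edgeR with Benjamini-Hochberg adjustment). Bcl3 was at 0.9167, 0.02896 and 7.123 CPM, and its 785 reads in HD-homo against 3 in HD-het cells gave a ratio of 245 (exact 95% counting interval 83.7 to 1193). Ifnlr1, a subunit of the interferon lambda receptor, was at 0.8794, 0.02954 and 1.248 CPM, and its 139 against 3 reads gave a ratio of 43.5 (14.6 to 213). With 1 line per genotype, whether these differences belong to the genotype or to the line cannot be told apart.

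Ifi27, also named after its values were seen, had 0.516, 25.3 and 41.3 CPM from control to HD-het to HD-homo, and HD-homo and HD-het cells differed by 0.70 on the log2 scale (adjusted p = 0.0738). Ifih1, which encodes the RNA sensor MDA5, had means of 0.0433, 0.989 and 11.1 CPM in the same order. Its control libraries held at most 2 reads each, below the floor, so the size of its first step is uncertain.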
